A study of Mus musculus with 9 samples.

Results

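Insulin signalling, FoxO control and glucose transport were followed through 10 genes in the whole ovary of the mouse. They are the insulin receptor gene Insr, the docking protein genes Irs1 and Irs2, the kinase pathway genes Pik3r1 and Akt2, the transcription factor genes Foxo1 and Foxo3, and the glucose transporter genes Slc2a1, Slc2a3 and Slc2a4. They were chosen by name for their roles, with earlier results of these data known, and all 10 were found among the 33450 rows of the authors' table, each as 1 row. The ovaries came from C57BL/6J mice, an inbred laboratory strain, aged 15 weeks and fed their diet for 10 weeks. HFOB mice became obese on a diet with 60% fat, HFLN mice stayed lean on that same diet, and Control mice ate standard chow with 16% fat, with 3 mice in each group. Whether a mouse counted as HFOB or HFLN was set by its response to the diet and not by assignment.

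Levels were deposited as FPKM, a read density corrected for transcript length and library size, and levels of different genes are set side by side here. Such comparisons between genes have a limit, since the rows of Gapdh and Rps6 stood unusually low, as given under other observations. Each group has a single FPKM with a lower and an upper bound. Animals are not listed apart, so no SD, n or test is available, and the depth behind each value is unknown. For 9 members the half-width of the interval was 32.9% to 42.8% of the value, and for Slc2a4, the lowest member, it was 61.0% to 63.3%. Markers of the tissue were present in all groups: the oocyte coat gene Zp3 stood at 54.4, 53.0 and 52.2 FPKM in HFOB, HFLN and Control, and Amh of growing follicles at 187, 176 and 181 FPKM. In whole tissue, fewer cells of a type and less RNA per cell cannot be told apart.

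Insulin binds a receptor kinase at the cell surface, which phosphorylates the docking proteins IRS1 and IRS2. These recruit phosphoinositide 3-kinase, whose lipid product activates AKT, and AKT in turn moves the glucose transporter GLUT4 to the membrane of fat and muscle cells and sends FoxO transcription factors out of the nucleus. In the mouse ovary, Foxo3 is known for holding primordial follicles at rest and Foxo1 for its abundance in granulosa cells of growing follicles. Ovarian cells take up glucose largely through transporters that do not wait for insulin.

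Promoter sequences were taken from RefSeq (assembly GRCm38.p6, which underlies mm10) and were found for 7 of the 10 members. The missing entries are Insr, Slc2a3 and Slc2a4. The 3 shown run 5′ to 3′ on the strand of the gene, and each covers the 250 bases before its annotated start. Slc2a1 is shown because it was the 1 member that differed by more than 1.5-fold between groups. Irs1 and Irs2 are shown because they encode proteins of the same role whose levels differed from each other in every group. Capitals mark the core of a hypoxia-response element (ACGTG) and GC boxes (GGGCGG, here as CCGCCC) in Slc2a1. In Irs1 and Irs2 they mark an E-box (CACGTG) and an insulin-response element (TGTTTTG). The GC boxes of Irs1 and Irs2 were left in lower case.
Slc2a1, chr4:119108495-119108744, plus strand: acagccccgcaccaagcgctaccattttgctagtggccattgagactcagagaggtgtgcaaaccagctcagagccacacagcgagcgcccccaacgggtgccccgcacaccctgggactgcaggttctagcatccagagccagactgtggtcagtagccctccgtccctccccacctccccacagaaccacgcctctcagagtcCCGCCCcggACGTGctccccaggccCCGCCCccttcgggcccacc
Irs1, chr1:82291440-82291689, minus strand: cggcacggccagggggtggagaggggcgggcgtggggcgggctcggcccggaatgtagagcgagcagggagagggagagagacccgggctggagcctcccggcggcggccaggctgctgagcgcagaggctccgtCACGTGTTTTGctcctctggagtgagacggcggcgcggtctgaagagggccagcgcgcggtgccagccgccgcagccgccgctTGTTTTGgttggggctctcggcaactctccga
Irs2, chr8:11008930-11009179, minus strand: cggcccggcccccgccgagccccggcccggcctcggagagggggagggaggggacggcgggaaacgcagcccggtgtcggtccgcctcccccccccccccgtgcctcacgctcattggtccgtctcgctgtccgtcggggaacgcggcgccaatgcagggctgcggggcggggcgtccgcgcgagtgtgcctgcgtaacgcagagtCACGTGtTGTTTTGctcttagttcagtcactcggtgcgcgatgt

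Both strands were searched in the 32851 promoter windows of the annotation. ACGTG was found in 16.6% of them, CACGTG, which contains ACGTG, in 6.02%, TGTTTTG in 5.56% and GGGCGG in 32.7%. In Slc2a1 the hypoxia-response core began 36 bases before the annotated start, between GC boxes that began 45 and 20 bases before it. GC boxes were not particular to Slc2a1, since every member with a promoter sequence held at least 1. The core was also found in Akt2, a gene that was level across the groups. There it began 47 bases before the start, with a GC box at 102 bases. Irs1, the steadiest member, and Irs2 held the core as well, as part of their E-boxes. In Irs1 an E-box 115 bases before the start overlapped a TGTTTTG, and a further TGTTTTG began 32 bases before the start. In Irs2 the E-box began 44 bases and TGTTTTG 37 bases before the start, with 1 base between them. The FoxO site in the form TGTTTAC (3.17% of windows) and the AP-1 site TGACTCA (4.46%) were not found in any of the members' windows. A window without that form of the FoxO site may hold another form. The motifs were chosen after the sequences had been seen. A match describes letters only and does not show binding.

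Slc2a1, which encodes the widely expressed basal glucose transporter GLUT1, stood at 18.7 FPKM in HFOB, 20.0 in HFLN and 31.8 in Control. The deposited intervals were 11.6 to 25.9, 12.5 to 27.4 and 19.2 to 44.3 FPKM. Both diet groups lay below Control and close to each other, and the intervals overlapped in every pair of groups. The ratio of FPKM was 0.590 for HFOB over Control and 0.629 for HFLN over Control, which corresponds to Control values 1.69-fold and 1.59-fold higher. Both comparisons use the same Control value, so they are not independent.

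On the log2(FPKM + 1) scale used for folds throughout, Slc2a1 differed by -0.73 between HFOB and Control and by -0.64 between HFLN and Control. In HFOB its value lay below the lower bound of Control, and the Control value lay above the upper bound of HFOB. Of the 16929 rows considered, those with at least 1 FPKM in a group, 0.780% had each value outside the other interval in that way. In HFLN the value of 20.0 FPKM lay just inside the Control interval, whose lower bound was 19.2. The Control value of 31.8 lay above the HFLN upper bound of 27.4. Between HFOB and HFLN the log2 fold of Slc2a1 was -0.09.

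Among rows of at least 5 FPKM in every group, 1.06% had a lower log2 fold than Slc2a1 in HFOB against Control and 1.5% in HFLN against Control. The gene spans chromosome 4 from 119108745 to 119137330 in GRCm38.p6, and no other row of the table overlapped it. Rescaling each group to the same sum of FPKM over protein-coding genes shifted the median of all rows by 0.09 in HFOB and 0.20 in HFLN against Control, and by -0.11 in HFOB against HFLN. Slc2a1 then stood at -0.64 and -0.44, still below Control but short of 1.5-fold in HFLN.

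**Figure D1:**
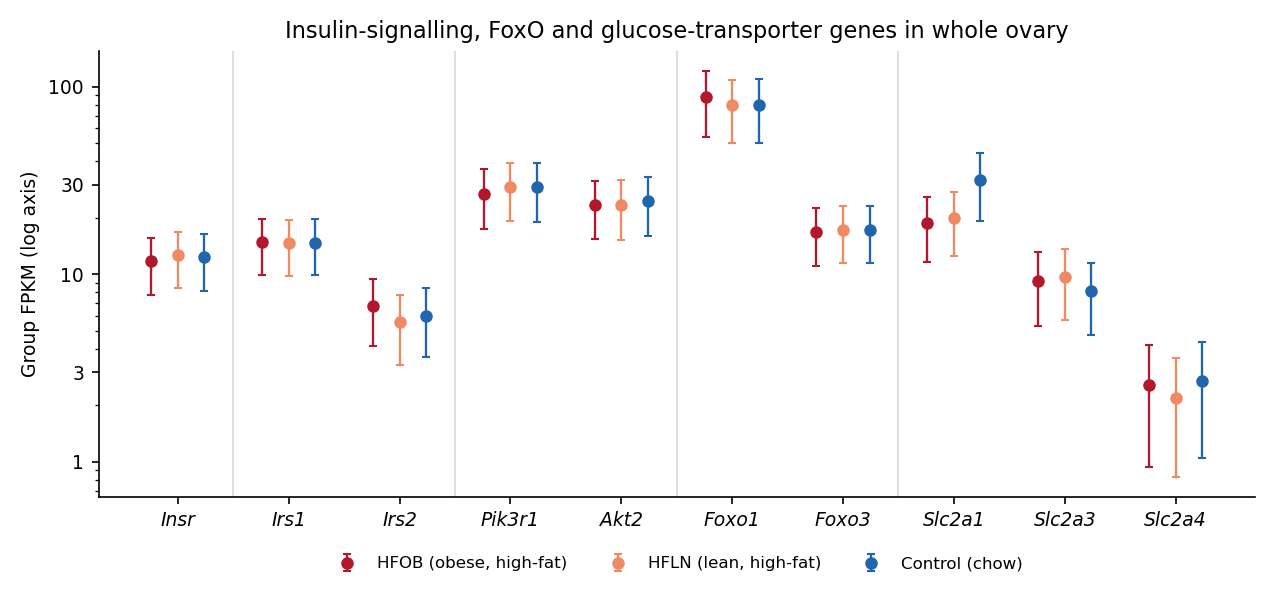
Group FPKM (points, log axis) with the deposited lower and upper bounds (bars) for the 10 genes, in HFOB, HFLN and Control from left to right, ordered by role from the receptor to the transporters. Slc2a1 at 18.7, 20.0 and 31.8 FPKM is the gene whose points spread most, and the bars of the 3 groups overlap for every gene.

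Slc2a3, which encodes the high-affinity transporter GLUT3, stood at 9.25 FPKM in HFOB (5.30 to 13.2), 9.70 in HFLN (5.68 to 13.7) and 8.10 in Control (4.72 to 11.5). Both diet groups lay above Control, the opposite order to Slc2a1, by 14.2% in HFOB and 19.7% in HFLN. Each value lay well inside the intervals of the other groups. The Slc2a1 level was 2.03 times that of Slc2a3 in HFOB, 2.06 times in HFLN and 3.92 times in Control. The intervals of both genes overlapped in HFOB and in HFLN and were apart in Control. The difference between these ratios was not tested.

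Slc2a4 encodes GLUT4, the insulin-responsive transporter of fat and muscle, and was the least abundant member. It stood at 2.57 FPKM in HFOB (0.943 to 4.20), 2.20 in HFLN (0.834 to 3.56) and 2.69 in Control (1.05 to 4.33). Of 13068 protein-coding rows with at least 1 FPKM in a group, 15.4%, 12.0% and 15.9% lay below it in HFOB, HFLN and Control. Its log2 folds were -0.05 in HFOB against Control, -0.21 in HFLN against Control and 0.16 in HFOB against HFLN, all far inside the intervals. The 10 adipocyte marker genes, led by Fabp4 and Cfd, summed to 411 FPKM in HFOB, 316 in HFLN and 358 in Control, and none was at 0. Fabp4, a fatty acid carrier, stood at 139, 87.2 and 77.2 FPKM. The adipsin gene Cfd stood at 62.2, 86.4 and 103 FPKM, with lower bounds of 0 and upper bounds of 591, 678 and 744 FPKM. Of the list, 5 genes were past 1.5-fold higher and 0 lower in HFOB than in HFLN, where 1.70% and 2.43% of all rows were. Against Control 3 were past it higher in HFOB and 1, Cfd, lower, where 1.16% and 2.64% of all rows were. By any amount 6 were higher and 4 lower in HFOB than in Control. Lep, which encodes the fat hormone leptin and is named after its values were seen, stood at 2.10, 0.332 and 0.223 FPKM. It passed 2-fold with intervals apart in HFOB against Control and against HFLN, as 0.0945% and 0.112% of rows did on the higher side. HFLN was lowest both for Slc2a4 and for the adipocyte marker sum, but Slc2a4 was highest in Control and the sum in HFOB. The part of fat cells in the Slc2a4 values was not tested. Skeletal muscle markers summed to only 6.23, 5.77 and 5.51 FPKM, and the myosin gene Myh4 was at 0.

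Insr, the receptor itself, stood at 11.7 FPKM in HFOB (7.74 to 15.7), 12.6 in HFLN (8.46 to 16.8) and 12.3 in Control (8.17 to 16.5). The groups lay within 1.08-fold of each other. It spans chromosome 8 from 3150922 to 3279649. The related receptor gene Igf1r was 1.82, 1.73 and 1.83 times as abundant in HFOB, HFLN and Control, with intervals that overlapped those of Insr in each group.

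Irs1 was the steadiest member, at 14.8 FPKM in HFOB (9.93 to 19.7), 14.7 in HFLN (9.81 to 19.5) and 14.8 in Control (9.85 to 19.7). Its highest and lowest groups differed by 1.01-fold. Irs2 stood at 6.79 FPKM in HFOB (4.15 to 9.43), 5.53 in HFLN (3.28 to 7.78) and 6.02 in Control (3.63 to 8.40). After Slc2a1 it had the widest range of the members, with HFOB 22.7% above HFLN, yet each value lay inside the other intervals. Irs1 exceeded Irs2 2.18-fold in HFOB, 2.65-fold in HFLN and 2.45-fold in Control, and their intervals were apart in every group. Irs1 lies on chromosome 1 from 82233105 to 82291439 and Irs2 on chromosome 8 from 10984681 to 11008929. The locus of the Irs2 row also holds a row of the non-coding gene 9530052E02Rik, which did not exceed 0.0662 FPKM.

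Pik3r1 encodes a regulatory subunit of phosphoinositide 3-kinase, which holds the catalytic subunit and binds the docking proteins. It stood at 26.8 FPKM in HFOB (17.4 to 36.3), 29.1 in HFLN (19.2 to 39.0) and 29.2 in Control (19.1 to 39.3). HFOB was 8.10% below Control, far inside both intervals. Its level was 2.75, 3.14 and 3.08 times that of the catalytic subunit gene Pik3ca in HFOB, HFLN and Control, with intervals apart. The gene of the related regulatory subunit, Pik3r2, was more abundant than Pik3r1 at 40.0, 36.3 and 38.1 FPKM, or 1.49, 1.24 and 1.31 times its level, with overlapping intervals. Akt2, the AKT kinase most tied to glucose handling in mice, stood at 23.5 FPKM in HFOB (15.3 to 31.6), 23.5 in HFLN (15.3 to 31.6) and 24.5 in Control (15.9 to 33.1). The values of both diet groups were the same to 3 digits. Akt1 was the dominant AKT gene of the ovary at 134, 119.6 and 140.5 FPKM in HFOB, HFLN and Control, 5.70, 5.09 and 5.74 times Akt2. Pik3r1 lies on chromosome 13 from 101680761 to 101768217 and Akt2 on chromosome 7 from 27591552 to 27640826.

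Foxo1 was the most abundant member in every group, at 87.7 FPKM in HFOB (54.2 to 121), 79.6 in HFLN (50.2 to 109) and 80.1 in Control (50.2 to 110.1). Of protein-coding rows, 93.1%, 92.5% and 91.8% lay below it in HFOB, HFLN and Control. HFOB lay 9.49% above Control and 10.2% above HFLN, inside the intervals of both. The 8 granulosa markers summed to 2250 FPKM in HFOB, 2107 in HFLN and 2551 in Control, mostly through Inha at 1465, 1360 and 1712 FPKM. Foxo1 did not follow the order of that sum. Of the list only Amh, at 187, 176 and 181 FPKM, and the row of Foxl2, shared with Faim, had the order of Foxo1. The part of granulosa cells in the Foxo1 values was not tested. Foxo3 stood at 16.9 FPKM in HFOB (11.1 to 22.6), 17.3 in HFLN (11.5 to 23.1) and 17.3 in Control (11.5 to 23.1), within 1.03-fold across groups. Oocyte markers, of the cells in which Foxo3 acts on follicle rest, summed to 278, 268 and 261 FPKM.

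Within the FoxO family Foxo1 exceeded Foxo3 5.21-fold in HFOB, 4.61-fold in HFLN and 4.63-fold in Control, with intervals apart. Foxo4 was level with Foxo3, at 17.7, 16.6 and 14.6 FPKM in HFOB, HFLN and Control, and Foxo6 was lowest at 5.64, 5.59 and 5.47 FPKM. Foxo1 lies on chromosome 3 from 52268337 to 52350109 and Foxo3 on chromosome 10 from 42181845 to 42276695. Slc2a3 lies on chromosome 6 from 122727809 to 122802363 and Slc2a4 on chromosome 11 from 69942286 to 69948216, all as spans of whole genes in the RefSeq annotation.

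**Figure D2:**
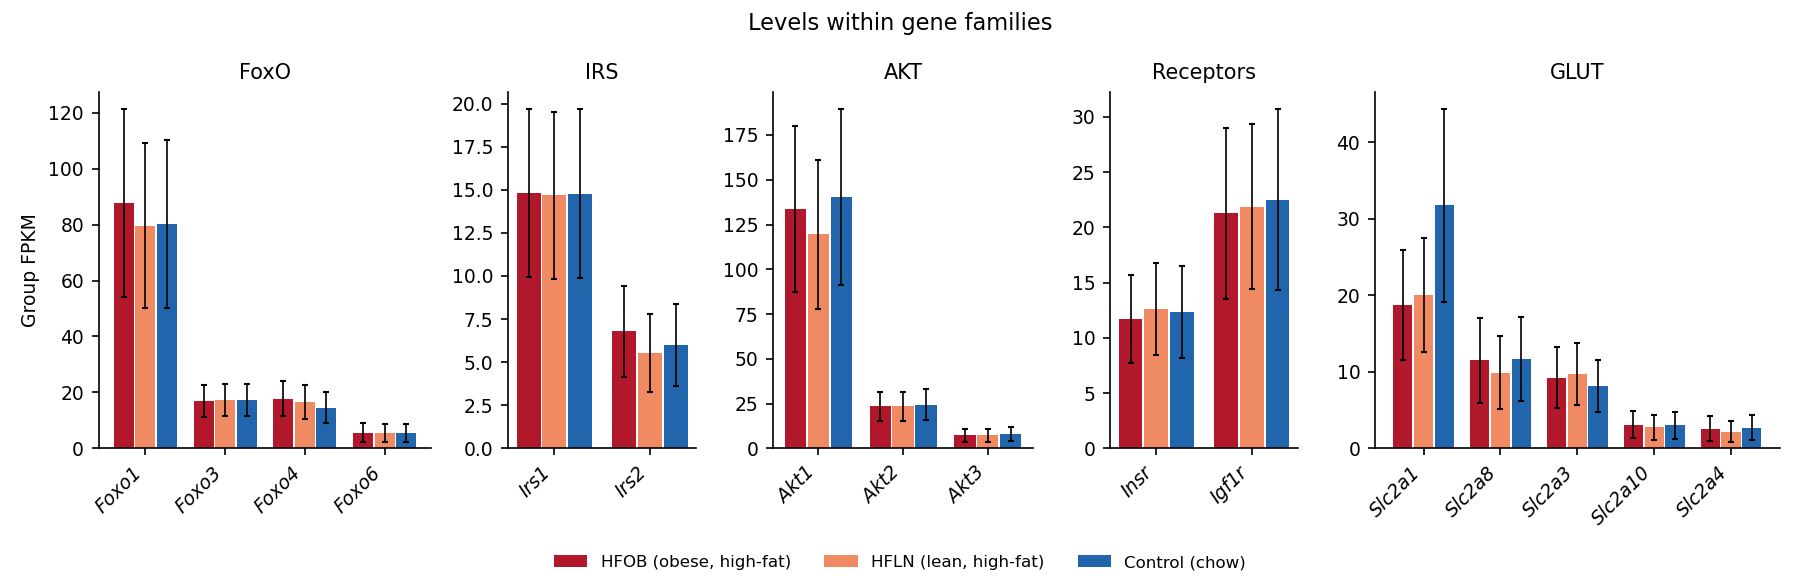
Group FPKM (bars, linear axes from 0, a separate axis for each family) with the deposited bounds, in HFOB, HFLN and Control from left to right, for FoxO, IRS, AKT, receptor and glucose transporter genes. Foxo1 and Akt1 stand above their relatives in all groups, and Slc2a1 is the transporter with the highest bar in each group.

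The order of the 10 members was the same in HFOB and HFLN. Foxo1 came first, then Pik3r1, Akt2, Slc2a1, Foxo3, Irs1, Insr, Slc2a3, Irs2 and Slc2a4. In Control Slc2a1 stood second, above Pik3r1 and Akt2, and the others kept their order. Only the step from Foxo1 to the next gene had intervals apart, and this held in each group. All other neighbours in the order overlapped.

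Across the members, 0 of 10 passed the rule of at least 2-fold with intervals apart in any comparison. Over all rows considered, 0.366% passed it in HFOB against Control, 0.283% in HFLN against Control and 0.195% in HFOB against HFLN. At 1.5-fold without the interval condition, Slc2a1 alone passed in HFOB against Control and in HFLN against Control, on the lower side, where 2.64% and 2.82% of rows did (3.80% and 4.06% in either direction). No member passed 1.5-fold in HFOB against HFLN, where 4.13% of rows passed in either direction. For rows of at least 5 FPKM in every group, a level that 9 of the members reach, the lower share was 1.77% in each comparison with Control.

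The median log2 fold of the members was -0.04 in HFOB against Control, -0.01 in HFLN against Control and -0.02 in HFOB against HFLN. Over all rows the same medians were -0.01, 0.00 and -0.01. After scaling to the sum of protein-coding genes the members' medians were 0.04, 0.20 and -0.14, so the sign against Control turned. Under it the median of all rows shifted by 0.09, 0.20 and -0.11, which bears on each list median given after that scaling. Without Slc2a1 the members' log2 folds ran from -0.12 to 0.17 in HFOB against Control, from -0.21 to 0.23 in HFLN against Control and from -0.11 to 0.25 in HFOB against HFLN. The central 95% of rows of at least 5 FPKM ran from -0.50 to 0.29, -0.48 to 0.31 and -0.32 to 0.37. Signs of such small folds depend on scaling: 6 members were lower in HFOB and 8 in HFLN than in Control, against 2 and 2 after scaling to the sum of protein-coding genes. Of all rows 53.0% and 49.9% were lower before that scaling. Slc2a1 was lower in both comparisons under each scaling.

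**Figure D3:**
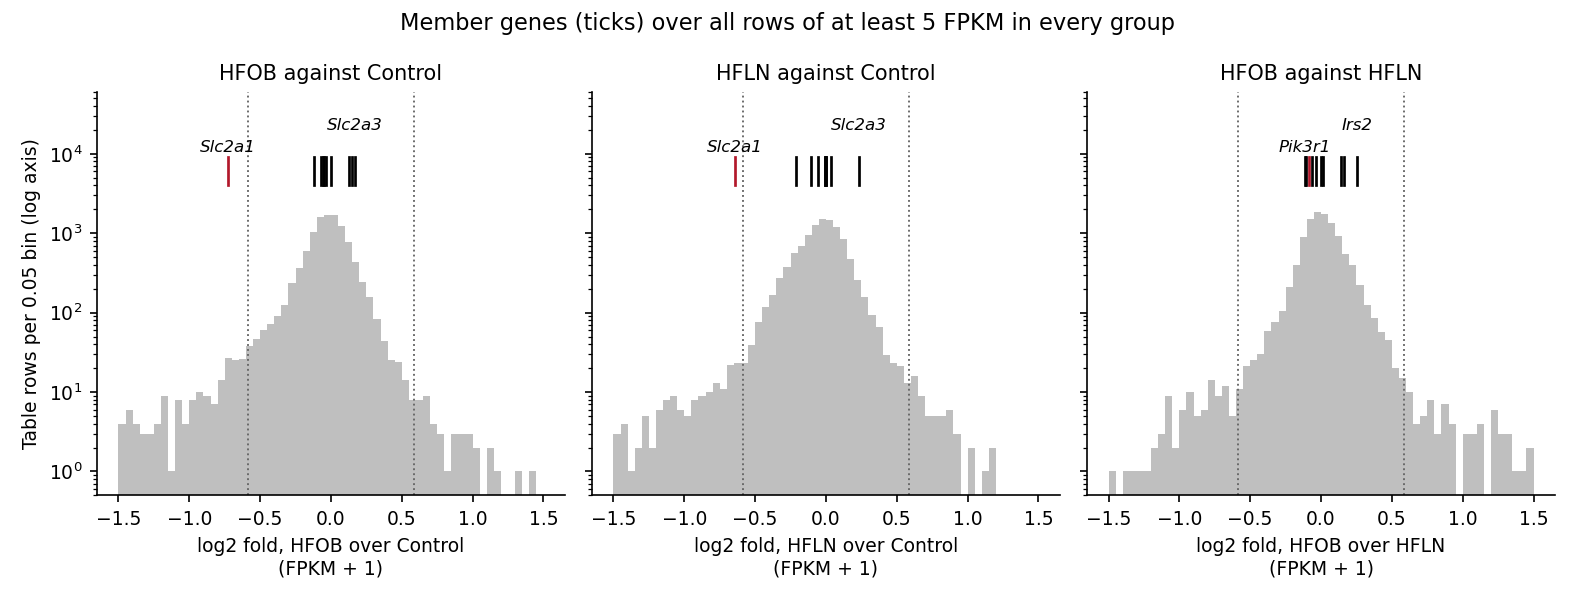
Histograms (log axis, bins of 0.05) of log2 folds of FPKM + 1 over all rows of at least 5 FPKM in every group, with the 10 member genes as ticks and dotted lines at 1.5-fold in each direction, for HFOB against Control, HFLN against Control and HFOB against HFLN. Slc2a1 (red) stands outside the dotted line at -0.73 and -0.64 against Control, and all other ticks lie in the central peak. Beyond the axis lie 17, 40 and 22 rows.

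Other glucose transporter genes were scarce. Of 14 further genes of the SLC2 and SLC5 families, 3 reached 1 FPKM in a group and 0 passed 1.5-fold in any comparison. Slc2a8, an intracellular transporter, stood at 11.5, 9.88 and 11.7 FPKM in HFOB, HFLN and Control, and Slc2a12 at 1.07, 1.25 and 0.940 FPKM. Slc2a10 stood at 3.10, 2.75 and 3.00 FPKM, above Slc2a4. Of the 10 measured genes of GLUT4 vesicle traffic 0 passed 1.5-fold. Of all rows 3.80% passed it in HFOB against Control, 4.06% in HFLN against Control and 4.13% in HFOB against HFLN. The sorting receptor gene Sort1 stood at 5.52, 5.99 and 4.50 FPKM, and Rhoq, a small GTPase of the same route, at 12.7, 13.2 and 14.6 FPKM.

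Of the other 31 measured genes of insulin and PI3K-AKT signalling, 0 passed 1.5-fold in HFOB against Control and 1 did in HFLN against Control, where 3.80% and 4.06% of all rows passed. Their log2 folds ran from -0.40 to 0.26 in HFOB and from -0.72 to 0.21 in HFLN. That gene was Eif4ebp1, a brake on translation that mTOR releases, at 108 FPKM in HFOB, 86.6 in HFLN and 143 in Control. Its interval in Control, 77.8 to 208, overlapped those of both diet groups. Sh2b2, an adaptor of the insulin receptor, stood at 6.68, 6.25 and 8.44 FPKM. The list medians were -0.04 and -0.01 in HFOB and HFLN against Control, and 0.05 and 0.19 after scaling to the sum of protein-coding genes.

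Genes that restrain insulin signalling held the widest differences of the pathway. Of 20 measured, 4 passed 1.5-fold lower and 1 higher in HFOB against Control, while 2 passed lower and 0 higher in HFLN. On the lower side 2.64% of all rows passed in HFOB and 2.82% in HFLN, and on the higher side 1.16% and 1.24%. Socs3, a cytokine-induced inhibitor that can target IRS proteins, stood at 13.6 FPKM in HFOB (6.04 to 21.1), 31.4 in HFLN (6.74 to 56.1) and 39.4 in Control (20.8 to 58.0). HFOB was lowest, by a log2 fold of -1.47 against Control, and the intervals of HFOB and Control overlapped by a small margin. The table splits this gene over 2 rows, and their sum stood at 18.9, 49.5 and 51.8 FPKM. Its relative Socs1 stood at 14.4, 23.9 and 37.2 FPKM, with a sum over 2 rows of 25.2, 46.5 and 63.8. Between HFOB and HFLN these genes were the 2 of the list past 1.5-fold, on the lower side, where 2.43% of all rows passed. The other genes past 1.5-fold, named after their values were seen, were the AKT-binding Trib3 (2.36, 2.35 and 4.42 FPKM), Trib1 (6.22, 7.20 and 10.9 FPKM) and, on the higher side, the kinase inhibitor Pik3ip1 (33.7, 24.6 and 20.7 FPKM). Trib1 passed in HFOB alone, and the intervals of Pik3ip1 reached 0 in all groups. Grb14, an inhibitor of the receptor kinase, was the most abundant gene of the list at 167, 144 and 134 FPKM, 14.3, 11.4 and 10.9 times Insr. The list median was -0.11 in HFOB and -0.04 in HFLN against Control, and -0.02 and 0.17 after scaling to the sum of protein-coding genes.

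Of 21 measured genes in the list of known FoxO targets and other FoxO genes, 1 passed 1.5-fold higher and 1 lower in HFOB against Control, where 1.16% and 2.64% of all rows passed. In HFLN against Control 0 passed higher and 2 lower, where 1.24% and 2.82% of all rows passed. Gadd45a, a growth-arrest gene, stood at 116, 115 and 191 FPKM in HFOB, HFLN and Control with overlapping intervals. Pck1, an enzyme of gluconeogenesis and of glycerol formation in fat, stood at 4.10 FPKM in HFOB, 1.97 in HFLN and 2.07 in Control. It passed 1.5-fold on the higher side in HFOB against Control and against HFLN, with overlapping intervals in each pair. In HFOB against HFLN 1.70% of all rows passed on that side. Sesn3, a stress-induced restraint of mTOR, stood at 16.1, 15.5 and 24.5 FPKM, but the sum with a second row of the gene, at 27.1, 28.0 and 34.2 FPKM, did not reach 1.5-fold. The cell-cycle inhibitor gene Cdkn1b, named after its values were seen, was higher in both diet groups at 50.9 and 47.5 FPKM in HFOB and HFLN, against 37.6 in Control, short of 1.5-fold. The list median was 0.04 in HFOB and 0.03 in HFLN against Control, and 0.11 and 0.22 after scaling to the sum of protein-coding genes.

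**Figure D4:**
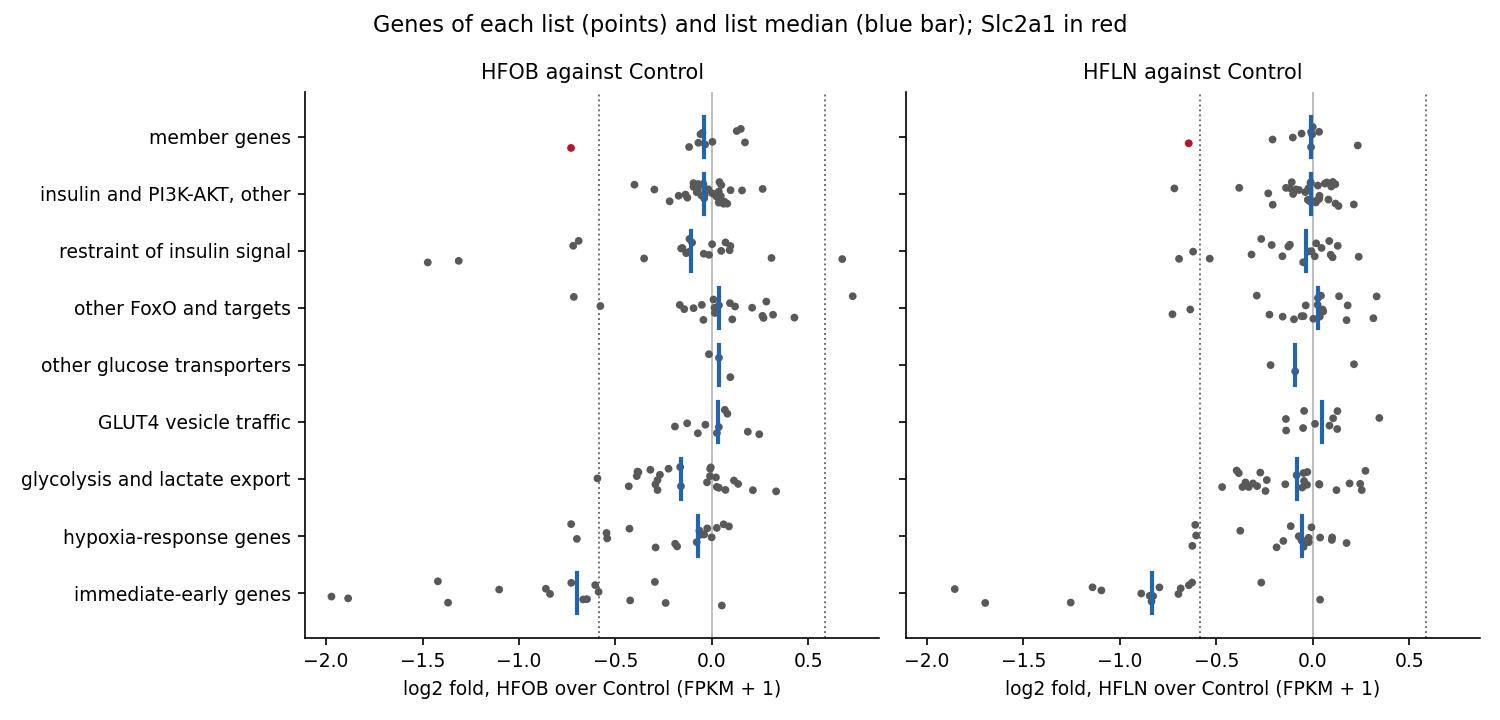
Log2 folds of FPKM + 1 for each measured gene (points) of the member set and 8 pathway lists, with the list median as a blue bar and dotted lines at 1.5-fold, for HFOB against Control and HFLN against Control. Slc2a1 (red) lies outside the dotted line in both panels, and the immediate-early genes have the lowest medians at -0.70 and -0.83.

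By distance over the 3 group values on the log2 scale, the protein-coding genes with a pattern most like Slc2a1 were Tubb6, Ankrd37 and Sdc1, of 12544 searched. Tubb6, a beta-tubulin gene, stood at 69.3 FPKM in HFOB, 74.5 in HFLN and 115.9 in Control, at a distance of 0.0112. Ankrd37, a gene induced in low oxygen, stood at 2.85, 3.14 and 5.38 FPKM, at 0.0151, and its lower bounds were 0. Sdc1, a cell-surface proteoglycan, stood at 58.5, 61.1 and 98.6 FPKM, at 0.0277. Of the genes searched, 6 lay within 0.05 of Slc2a1, against 165 for Irs2, whose nearest were Cox7a2l, Pet100 and Phldb3 at 0.00556, 0.00982 and 0.00991. A likeness over only 3 values is a description.

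Genes of glucose breakdown and of the response to low oxygen, processes to which Slc2a1 belongs, were set beside it. Of 25 measured genes of glycolysis and lactate export, 17 were lower in HFOB and 18 in HFLN than in Control, against 53.0% and 49.9% of all rows. At 1.5-fold 1 passed in HFOB against Control, Hk2, where 3.80% of all rows passed, and 0 passed in HFLN, where 4.06% did. Hk2 encodes an inducible hexokinase that traps glucose in the cell. It stood at 6.54 FPKM in HFOB (3.80 to 9.29), 7.22 in HFLN (4.26 to 10.2) and 10.4 in Control (6.37 to 14.4). Aldoc, an aldolase gene, was highest in HFLN, at 7.83, 11.3 and 9.32 FPKM in HFOB, HFLN and Control. Ldha, which makes lactate, and the lactate exporter Slc16a3, both named after their values were seen, stood at 183, 173 and 221 FPKM and at 8.77, 8.73 and 11.8 FPKM. The list median was -0.16 in HFOB and -0.08 in HFLN against Control, and -0.14 and -0.06 after scaling to the median of protein-coding genes. After scaling to their sum it was -0.07 in HFOB and, turned round, 0.13 in HFLN. That scaling shifted the median of all rows by 0.09 and 0.20.

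Of 18 hypoxia-response genes 2 passed 1.5-fold lower in HFOB against Control, 3 in HFLN, and 0 higher in either. Of all rows 2.64% and 2.82% passed it lower, and 1.16% and 1.24% higher. Adm, which encodes the vasodilator adrenomedullin, stood at 11.6 FPKM in HFOB (5.74 to 17.4), 12.4 in HFLN (6.33 to 18.5) and 19.4 in Control (10.3 to 28.6). Ankrd37 passed in both comparisons and Ndrg1, at 20.4, 19.4 and 30.1 FPKM, in HFLN. Of the list, 15 genes were lower by any amount in HFOB and 14 in HFLN than in Control, against 53.0% and 49.9% of all rows. The medians were -0.07 in HFOB and -0.06 in HFLN, and -0.05 and -0.04 after scaling to the median of protein-coding genes. After scaling to their sum the list medians turned to 0.02 and 0.15, but that scaling shifted the median of all rows by 0.09 and 0.20. Vegfa, the angiogenic growth factor, stood at 57.5, 74.0 and 84.4 FPKM.

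Immediate-early genes, which cells switch on within minutes of a stimulus, had the lowest median fold of the 8 lists in both diet groups. Like the other lists, this list was chosen with earlier results of these data known. At 1.5-fold 12 of 16 were lower in HFOB and 14 of 16 in HFLN than in Control, and 0 were higher. Of all rows 2.64% and 2.82% were lower at 1.5-fold, and 1.16% and 1.24% were higher. The list median was -0.70 in HFOB and -0.83 in HFLN, and -0.64 and -0.63 after scaling to the sum of protein-coding genes. Fosb and Arc passed the 2-fold rule with intervals apart in both comparisons, and Ier3 and Nr4a1 in HFOB. Over all rows 0.272% and 0.219% passed it on the lower side. Arc stood at 0.894 FPKM in HFOB, 1.05 in HFLN and 6.43 in Control, and Fosb at 0.826, 1.08 and 5.75 FPKM. Ier3 stood at 23.0, 27.1 and 60.9 FPKM and Nr4a1 at 15.3, 19.5 and 42.8 FPKM. Whether these genes and Slc2a1 differ for a common reason was not tested.

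Cell-type markers were set beside Slc2a1. Of 14 marker lists, 6 had their highest summed FPKM in Control, as Slc2a1 did, and 2 of these, of endothelium and of brown adipocytes, also had HFOB below HFLN. Endothelial markers summed to 132 FPKM in HFOB, 140.1 in HFLN and 145 in Control, a much smaller difference than that of Slc2a1. Brown adipocyte markers summed to 32.9, 35.8 and 43.5 FPKM, mostly through Cox7a1, and the defining gene Ucp1 was near 0. Markers of erythrocytes, which carry GLUT1 in humans, summed to 183 FPKM in HFOB, 138 in HFLN and 246 in Control, with the anion exchanger gene Slc4a1 near 0. Luteal markers summed to 1769, 1453 and 3028 FPKM, mostly through the row of Akr1c18, which it shares with Akr1c12 and whose lower bounds are 0. Theca markers summed to 1367, 1326 and 1551 FPKM. The part of these cells in the Slc2a1 values was not tested.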

How the data were processed

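Whole-ovary messenger RNA of 9 mice was sequenced with a stranded kit, per the labels' protocols. Named in the submitters' processing notes are the mm10 build, TopHat2 (2.1.0), Trimmomatic (0.32.3), Cuffdiff (2.2.1.3) and Cufflinks (2.2.1.0), with no order given. The annotation, strand setting and library scaling were not given in the sources used here. The authors deposited 1 FPKM per group and gene with a lower and an upper bound, per the file headers, and the level of confidence is not given. Of 36886 RefSeq transcript identifiers 99.2% matched GRCm38.p6 and took their symbols from it. A gene is represented by its row with the highest mean FPKM.

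Folds were computed here on log2(FPKM + 1), with Python 3.11.15. A row was considered if it had the status OK and reached 1 FPKM in any group. No test was possible, so a row passed at 2-fold with intervals apart. A second description used 1.5-fold. The calculation was checked on simulated data. Members and lists were chosen with earlier results of these data known. Named in each list were the 2 genes with the widest range and any that passed, and further genes were named after their values were seen. A pseudogene that is no transporter was removed from the transporter list, and the background of rows of at least 5 FPKM was added, after the values were seen. A marker gene of the erythrocyte list is not reported here and does not enter its sum.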

Additional observations from a re-analysis of the deposited data

How the results depend on the processing

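The 9 summary results (members past the 2-fold rule, members past 1.5-fold and the median log2 fold, in 3 comparisons) were recomputed with a pseudocount of 0.1 FPKM, without a minimum, with a minimum of 5 FPKM, with both scalings, with the rows of a gene summed, and with 1.5-fold or the interval condition changed in the rule. Of 57 recomputed values 54 stayed within 1.5 times for a count or 0.1 for a median. The exceptions all came from scaling to the sum of protein-coding genes. Under it the count of members past 1.5-fold in HFLN against Control was 0 in place of 1, and the members' median was 0.20 in HFLN against Control and -0.14 in HFOB against HFLN, in place of -0.01 and -0.02. In HFOB against Control that median was 0.04 in place of -0.04. That scaling assumes equal sums, and the HFOB and HFLN sums were 0.937 and 0.860 of the Control sum. Over these settings Slc2a1 ranged from -0.76 to -0.64 in HFOB against Control and from -0.67 to -0.44 in HFLN against Control. No member's log2 fold moved by more than the width given by its deposited bounds in 177 recomputed values. That width, 0.63 to 0.92 over members and comparisons, was far larger than the shifts these settings make. The outcome was therefore close to fixed and does not show that the folds are stable. Signs of small folds did turn, as given above. Of 144 recomputed medians of pathway lists 20 moved by more than 0.1. Leaving out single animals could not be run, and depth limits cannot be stated. No paired analysis was possible because the table holds 1 value per group.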

Other observations

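The row of Gapdh, the glycolytic enzyme often used as a standard, stood at 2.38 FPKM in HFOB, 2.31 in HFLN and 3.11 in Control, and the row of the ribosomal protein gene Rps6 at 13.4, 13.8 and 13.0 FPKM. The neighbouring enzyme of glycolysis, Aldoa, stood at 1222, 1147 and 1496 FPKM. The rows of Gapdh and Rps6 were noticed after their values were seen, and the reason for their low level was not tested. Both enter the counts of their lists, of glycolysis and of insulin signalling.

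Oviduct-type ciliated epithelium markers summed to 52.3 FPKM in HFOB, 122 in HFLN and 74.2 in Control. Trarg1, a partner of GLUT4 traffic in fat cells, stayed below 1 FPKM at 0.951, 0.605 and 0.385 in HFOB, HFLN and Control, and its intervals overlapped.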
